A study of Mus musculus with 47 samples.

Results

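Tnf, Il6, Il10 and Il15 are 4 cytokine genes of macrophages, chosen by their gene symbols and described here in all 12 RNA-seq libraries of a study of Zmynd8. The deposited tables of bone marrow-derived macrophages (BMDMs, macrophages grown from marrow cells in M-CSF) list 51912 genes each, and those of Raw264.7 cells, a mouse macrophage line, list between 12771 and 23772. All 4 genes are listed in every table. The other 35 of the 47 samples in the series were not analysed here.

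The BMDMs came from Zmynd8 fl/fl mice on a C57BL/6 background with Cre expressed from the Lyz2 locus (Zmynd8 cKO), which is active in macrophages and neutrophils, or from fl/fl littermates without Cre (WT). They were grown with 20 ng/ml M-CSF and then sampled untreated (NT), after 6 h in 100 ng/ml LPS, a lipid of bacterial outer membranes, or after 6 h in 20 ng/ml IL-4. Both genotypes thus carry the floxed allele, and only the cKO also carries Cre. The study mixed 3 biological replicates into each library, so each of the 6 conditions has 1 library and no difference has a replicate check. Raw264.7 libraries came from Zmynd8 KO cells, from such cells with WT Zmynd8 or with D/E-A, a form whose acidic residues in the disordered region are alanine, and from LPS-treated cells labelled WT p65, K122R (p65 with arginine in place of an acetylated lysine) and p65 KO, again 1 library each. The labels give no LPS dose or time for the p65 lines and no treatment for the Zmynd8 lines. The study's text describes LPS for the WT Zmynd8 and D/E-A cells, with no dose or time, and gives none for the Zmynd8 KO library. The column taken as WT p65 is headed only as WT with LPS, so unmodified Raw264.7 cells cannot be told apart from p65 KO cells with WT p65.

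Tnf encodes TNF, which is made as a membrane protein, cut loose by the protease ADAM17 and read by the receptors TNFR1 and TNFR2. Il6 encodes IL-6, which signals through IL-6R and gp130 to JAK kinases and STAT3, and Il15 encodes IL-15, which macrophages hold on the IL-15Rα chain for T and NK cells. Il10 encodes IL-10, which acts through STAT3 and restrains the output of inflammatory cytokines, and LPS is known to switch on all these genes in macrophages, many of them through NF-κB, whose p65 subunit is the product of Rela.

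In mm10 coordinates of the deposited Raw264.7 tables, Tnf (ENSMUSG00000024401) lies at chr17:35199367-35202007 on the minus strand and Il6 (ENSMUSG00000025746) at chr5:30013114-30019975 on the plus strand. Il10 (ENSMUSG00000016529) lies at chr1:131019845-131024970 on the plus strand and Il15 (ENSMUSG00000031712) at chr8:82331624-82403272 on the minus strand. Il15 has 10 annotated transcripts in GENCODE, Il6 has 4, Tnf has 2 and Il10 has 1. A count per gene does not separate the transcripts.

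LPS moved all 4 genes, and K122R alters p65, the DNA-binding subunit of NF-κB. Only the promoters of Tnf and Il6 are shown, because the set of promoters used has no entry for Il10 or Il15. Each is the 250 bases before the start of the gene from RefSeq on GRCm38.p6, read 5′ to 3′ on the strand of the gene, at chr17:35202008-35202257 (minus strand) for Tnf and chr5:30012864-30013113 (plus strand) for Il6. Capitals mark matches on either strand to 4 motifs, the κB motif (GGGA and TTCC parted by NN), the AP-1 motif TGANTCA, the C/EBP motif TTGNGCAA and the TATA box TATAAA, with N for any base.
Tnf: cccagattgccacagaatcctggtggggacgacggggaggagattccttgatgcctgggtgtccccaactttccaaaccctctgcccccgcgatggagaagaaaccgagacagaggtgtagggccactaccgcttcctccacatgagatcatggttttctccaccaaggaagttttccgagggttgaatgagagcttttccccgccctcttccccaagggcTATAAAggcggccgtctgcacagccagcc
Il6: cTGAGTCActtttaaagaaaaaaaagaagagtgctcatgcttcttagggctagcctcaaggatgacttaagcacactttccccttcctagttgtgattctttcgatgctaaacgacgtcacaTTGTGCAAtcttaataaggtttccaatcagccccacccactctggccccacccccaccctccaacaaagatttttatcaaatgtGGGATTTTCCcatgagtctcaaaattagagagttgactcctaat
The Tnf promoter held 1 match, a TATA box 29 to 24 bases before the start. The Il6 promoter held a κB match 44 to 35 bases before the start, a C/EBP match 128 to 121 bases before it and an AP-1 match 249 to 243 bases before it, which do not overlap. Among 32851 promoters of the same length, 1.21% held the κB motif, 6.75% the AP-1 motif, 2.61% the C/EBP motif and 12.4% the TATA box. A match describes these letters in this window only. Il10 and Il15 are named without a promoter sequence.

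The BMDM libraries held 22597425 to 28386646 counts and the Raw264.7 libraries 15127110 to 21042628 reads. All 6 macrophage markers (Adgre1, Csf1r, Cd68, Itgam, Mertk and Fcgr1) were detected in each of the 12 libraries. They summed to 6133 to 9444 CPM (counts of a gene for each 1000000 counts of the library) in BMDMs, 2184 to 3690 RPM (the same for reads) in the Zmynd8 lines and 1116 to 1247 in the p65 lines. Zmynd8 itself had 87.1 CPM in WT NT and 81.5 in cKO NT. In the LPS pair it had 79.0 CPM in WT and 86.8 in cKO, and in the IL-4 pair 128 and 151, so it was higher in the library labelled cKO in both treated pairs. A count per gene cannot separate the floxed exons from the rest, and WT and cKO below mean the libraries with those labels. Lyz2 was lower in each cKO library than in its WT partner, at 2892 to 7202 CPM against 6902 to 10950 CPM. In Raw264.7 cells, Zmynd8 had 5.75 RPM in the KO against 26.4 with WT Zmynd8 and 27.7 with D/E-A, and Rela had 102 with WT p65, 351 with K122R and 50.6 in p65 KO. In the p65 lines, Zmynd8 had 117 RPM with WT p65, 64.2 with K122R and 107 in p65 KO. The part of this lower Zmynd8 in the K122R values was not tested. Both sets of Raw264.7 libraries stood apart. Xist, which is transcribed from the inactive X chromosome, had 7109 to 8467 reads in the Zmynd8 lines and 0 to 3 reads in the p65 lines, although Raw264.7 cells come from a male mouse. In BMDMs, Xist had 740 CPM in WT NT and 323 in cKO NT, and 246 in WT LPS and 429 in cKO LPS. After IL-4 it had 1108 CPM in WT and 1057 in cKO. Whether the pools of mice differed in make-up was not tested. The ribosomal entry Rn18s-rs5 took 6.50% to 13.7% of the reads in the Zmynd8 lines and 0.179% to 0.509% in the p65 lines. Levels are therefore compared within each set, and values across the sets are only set side by side. The Xist reads of the Zmynd8 lines go against the name of a male line, so the identity of these cells is in doubt. Raw264.7 is used below as the study's name for them, and identity was not tested.

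Tnf was the most abundant of these genes per transcript length without treatment and after IL-4, and Il15 after LPS. On the scale of TPM, which divides by transcript length, Tnf stood at 33.5 and Il15 at 29.8 in untreated WT BMDMs, where Il10 stood at 2.64 and Il6 at 0.28. After LPS, WT BMDMs held 304 TPM of Il15, 162 of Tnf, 79.0 of Il10 and 19.1 of Il6. The order of the genes was thus Il15, Tnf, Il10 and Il6 in WT after LPS, and it was the same in cKO after LPS, with 329, 272, 59.3 and 32.8 TPM. After IL-4, the WT library held 39.8 TPM of Tnf, 18.9 of Il15, 1.96 of Il10 and 0.43 of Il6. The cKO library after IL-4 held 130 TPM of Tnf, 31.3 of Il15, 3.4 of Il6 and 1.83 of Il10, so it was the 1 library in which Il6 stood above Il10. Untreated cKO BMDMs held 38.2 TPM of Tnf, 18.9 of Il15, 0.84 of Il10 and none of Il6. The gene length listed beside the TPM for Tnf, Il6 and Il15 differed between the IL-4 table and the other tables, and its part in the TPM was not tested. The authors' TPM carry no counts of their own, so these orders have no limits here, and the limits of the counts given next do not cover the length. By counts undivided by length, Tnf stood above Il15 after LPS, at 4204 against 3785 in WT and 6258 against 3413 in cKO. The place of Il15 above Tnf after LPS thus rests on the lengths used.

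**Figure D1:**
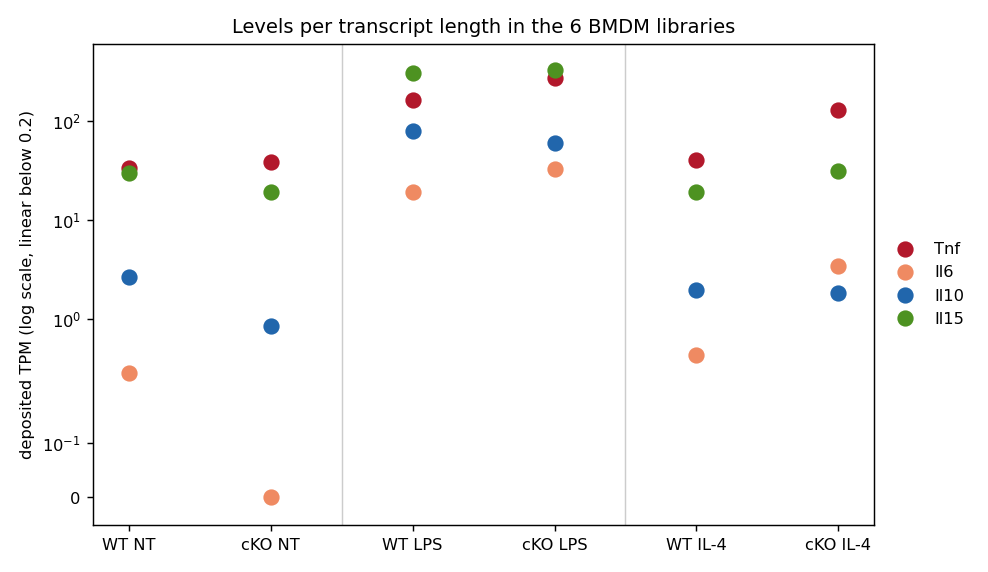
Deposited TPM (vertical axis, log scale that turns linear below 0.2) of Tnf, Il6, Il10 and Il15 in the 6 BMDM libraries (horizontal axis), 1 point for each gene and library. Il15 is the highest point in both LPS libraries, at 304 and 329 TPM, and Tnf is the highest in the other 4, while Il6 lies at 0 in untreated cKO.

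LPS raised all 4 genes in both genotypes, in a setting where most genes that were called fell as a share of the library. A gene counts as called when CPM plus 1 differed by a factor of 1.2 or more and when the reads of both libraries, by an exact binomial test taken two-sided, gave a p below 0.05 after Benjamini-Hochberg adjustment over every gene averaging 10 or more counts. The test compares libraries, not conditions, and all limits below are 95% limits that cover counting error only, since reads are not independent molecules. Between WT NT and WT LPS, 82.0% of all genes tested were called and 20.7% were called higher, and 4 of 4 members were called, all higher. Between cKO NT and cKO LPS, these shares were 82.9% and 23.9%, and 4 of 4 members were again called, all higher. In both comparisons Il6 passed the count filter only through the LPS library, so it could only be called higher. The median log2 change over all genes tested was -0.58 in WT and -0.55 in cKO, so log2 changes of the members are also given relative to that median. Both comparisons join tables that the authors deposited separately, and fewer cells of a type and less RNA per cell cannot be told apart in bulk libraries.

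Il6 was near or at zero before LPS. It had 2 counts (0.0763 CPM) in WT NT and 0 counts in cKO NT, where the floor of 3 counts used here is 0.133 CPM. It had 330 counts (13.3 CPM) in WT LPS and 498 counts (21.3 CPM) in cKO LPS, so both LPS libraries were far above both NT libraries. The ratio of LPS to NT in WT was 174-fold with wide limits of 47.7 to 1439.9, and in cKO it was at least 160.1-fold against a floor of 3 counts.

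Il10 had 52 counts (1.98 CPM) in WT NT and 17 (0.752 CPM) in cKO NT. It had 1554 counts (62.4 CPM) in WT LPS and 1035 (44.2 CPM) in cKO LPS. The LPS libraries lay 31.5-fold above NT in WT (23.9 to 42.3) and 58.7-fold in cKO (36.5 to 101). Relative to the all-gene median, the log2 change was 4.99 in WT and 5.24 in cKO.

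Il15 had 433 counts (16.5 CPM) in WT NT and 236 (10.4 CPM) in cKO NT. After LPS it had 3785 counts (152 CPM) in WT and 3413 (146 CPM) in cKO. Its ratio of LPS to NT was 9.20 in WT (8.33 to 10.2) and 13.9 in cKO (12.2 to 16.0), so the genotypes started apart and ended close together. Relative to the all-gene median, the log2 change was 3.71 in WT and 4.23 in cKO.

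Tnf was already expressed without treatment, with 868 counts (33.1 CPM) in WT and 1023 (45.3 CPM) in cKO. It reached 4204 counts (169 CPM) in WT LPS and 6258 (267 CPM) in cKO LPS. Its ratio of LPS to NT was the smallest of the members, 5.10-fold in WT (4.74 to 5.49) and 5.90-fold in cKO (5.52 to 6.31). Relative to the all-gene median, the log2 change was 2.90 in WT and 3.08 in cKO.

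**Figure D2:**
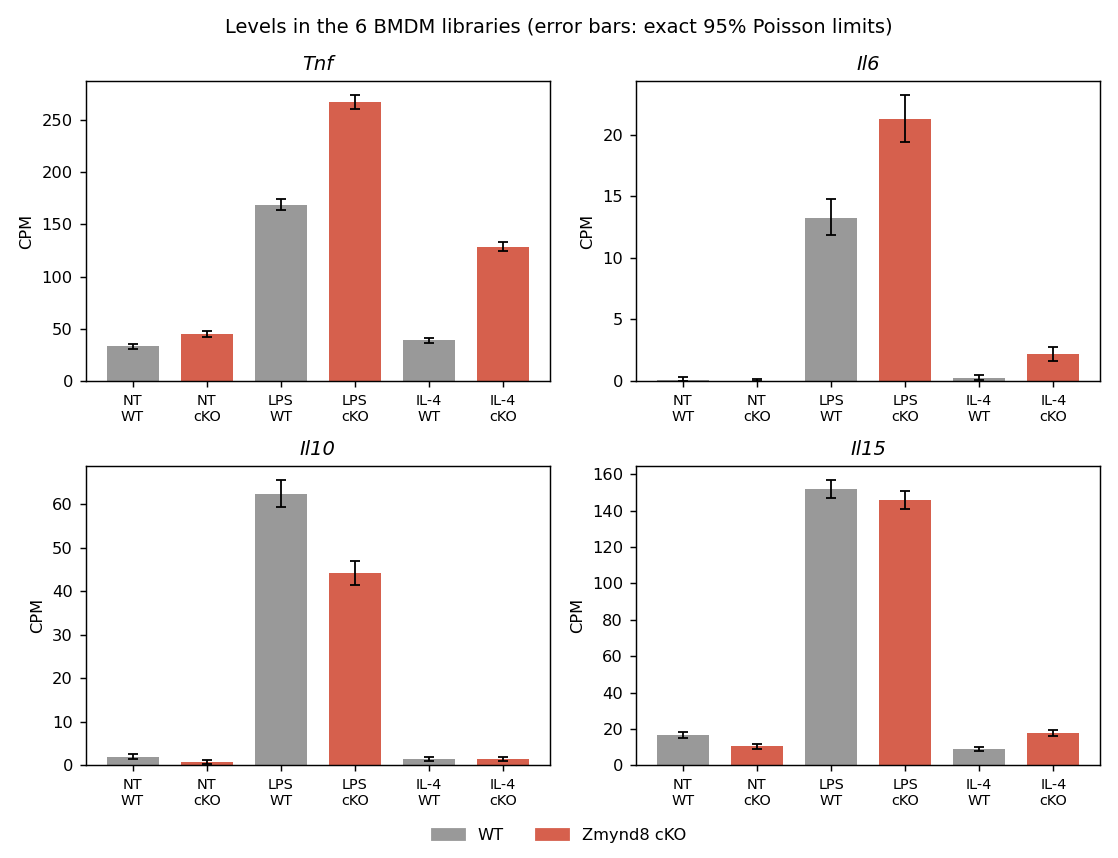
CPM (vertical axes, linear from 0) of Tnf, Il6, Il10 and Il15 in the 6 BMDM libraries, 1 bar for each library, grey for WT and red for Zmynd8 cKO, with exact 95% Poisson limits. The LPS bars are the highest in each panel, Tnf and Il6 are higher and Il10 lower in cKO than in WT after LPS, and Tnf stands at 129 CPM in cKO against 38.7 in WT after IL-4.

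Without treatment, Tnf was higher and Il10 and Il15 were lower in cKO than in WT BMDMs. Of the members, 3 of the 3 that could be tested were called, where 48.0% of all genes tested were called. Tnf was 1.37 times as high in cKO (1.25 to 1.498, adjusted exact p = 5.37e-11). Il10 in cKO was 0.379 times its WT level (0.206 to 0.666, adjusted exact p = 0.000572). Il15 in cKO was 0.632 times its WT level (0.537 to 0.742, adjusted exact p = 2.92e-08). Il6, with 2 counts and 0 counts, gives no fold change. When edgeR's exact test was given a biological coefficient of variation of 0.2, none of the 3 was called, and Tnf also fell under the fold rule when libraries were scaled by housekeeping genes (log2 change 0.22) and on deposited TPM (0.19). Il10 was not called when a mean of at least 50 counts was required. Gapdh, Ppia and Rplp0 were themselves called higher in cKO without treatment.

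After LPS, where the study reported higher pro-inflammatory genes in cKO, Il6 among them, Tnf and Il6 were higher and Il10 was lower in cKO than in WT. Il15 did not pass the fold rule. Of the members, 3 of 4 were called, where 26.2% of all genes tested were called. Tnf was 1.58 times as high in cKO (1.52 to 1.65, adjusted exact p = 1.56e-117). Il6 was 1.60 times as high (1.39 to 1.85, adjusted exact p = 2.05e-10). Il6 and Il15 stand in a gene list that the study chose on these samples, so their direction is not independent evidence. Il10 in cKO was 0.708 times its WT level (0.654 to 0.766, adjusted exact p = 6.76e-17). Il15 was 0.958 times its WT level (0.915 to 1.00, adjusted exact p = 0.146), and on deposited TPM its direction turned, with a log2 change of 0.11. By edgeR with an assumed coefficient of variation of 0.2, 0 of the 4 were called. Of the 6 macrophage markers, 2 were called higher in cKO after LPS, Itgam (log2 change 0.66) and Adgre1 (0.56), and 0 lower. Their median was -0.05, and 17.3% of all genes tested were called higher and 8.90% lower. Their part in these values was not tested.

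After IL-4, Tnf, Il6 and Il15 were higher in cKO than in WT, and Il10 was not called. Of the members, 3 of 4 were called, where 24.5% of all genes tested were called. Il6 passed the count filter only through the cKO library, so it could only be called higher. Tnf had 1099 counts (38.7 CPM) in WT IL-4 and 3361 (129 CPM) in cKO IL-4, a ratio of 3.32 (3.10 to 3.56, adjusted exact p = 3.00e-303). That log2 change, 1.71, exceeded those of 99.7% of the genes tested. Il6 had 6 counts (0.211 CPM) in WT and 56 (2.14 CPM) in cKO, a ratio of 10.1 with limits of 4.38 to 28.8 (adjusted exact p = 2.92e-11). Its cKO level after IL-4 was below both LPS libraries, and Il6 was not called when a mean of at least 50 counts was required. Il15 had 257 counts (9.05 CPM) in WT and 467 (17.9 CPM) in cKO, a ratio of 1.97 (1.69 to 2.31, adjusted exact p = 5.81e-18). Il10 had 41 counts (1.44 CPM) in WT and 36 (1.38 CPM) in cKO, a ratio of 0.954 whose limits, 0.592 to 1.53, allow a change in either direction. Tnf and Il6 were also called by edgeR with an assumed coefficient of variation of 0.2, and Il15 was not. Neutrophil markers stood apart in the IL-4 libraries. All 6 of S100a8, S100a9, Ly6g, Camp, Ngp and Elane were detected there and summed to 286 CPM in WT and 402 CPM in cKO, against 2.14 to 3.85 CPM in the NT and LPS libraries, where Elane was at 0. Their part in the values after IL-4 was not tested.

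Set against NT, IL-4 left Tnf in WT under the fold rule, at 1.17 times its NT level (1.07 to 1.28), though it was called higher under housekeeping scaling (log2 change 0.38), and lowered Il15 to 0.548 times (0.468 to 0.641). Of the members, 1 of the 3 tested was called in WT, where 60.6% of all genes tested were called. Il10 was 0.728 times its NT level in WT (0.471 to 1.12), which includes no change. In cKO, 3 of 4 members were called, where 67.3% of all genes tested were called. Il6 passed the count filter in cKO only through the IL-4 library, so it could only be called higher there. In WT it was untested, so the totals of 3 and 4 members differ through Il6 alone. Tnf in cKO was 2.84 times as high after IL-4 as without treatment (2.65 to 3.05) and Il15 was 1.71 times as high (1.46 to 2.01). Il6 in cKO went from 0 to 56 counts, at least 16.1-fold. Il10 in cKO went from 17 to 36 counts, a ratio of 1.83 (1.00 to 3.48), and was not called (adjusted exact p = 0.0510), but it was called higher under housekeeping scaling (log2 change 0.59), on deposited TPM (0.62) and by the fold rule alone (0.44). Il15 was thus called lower with IL-4 in WT and higher in cKO, and neither call held in edgeR's exact test with the coefficient of variation set to 0.2. Il6 in cKO was not called when a mean of at least 50 counts was required. The median log2 change over all genes was 0.15 in WT and 0.17 in cKO, and relative to it Il15 changed by -0.95 and 0.55. The comparisons of IL-4 with NT also join separately deposited tables. The IL-4 samples carry library numbers apart from those of NT and LPS, and their table held 2 entries that name no gene against 431, so IL-4 and the preparation of these libraries cannot be told apart.

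Across the 6 BMDM libraries in 1 fit with genotype and treatment as terms, the rise with LPS was called for all 4 genes, and the difference between cKO and WT was called for none. This fit was added after the data had been seen. Its error, on 2 residual degrees of freedom, holds whatever part of the genotype difference varies between treatments, and it gave a biological coefficient of variation of 0.209. By edgeR's quasi-likelihood test with Benjamini-Hochberg adjustment, LPS over NT had adjusted p from 0.000151 for Il10 to 0.000719 for Tnf. For cKO over WT, 0 of 13075 genes tested were called, and 403 had an unadjusted p under 0.05. The log2 difference of cKO over WT averaged over treatments was 0.94 for Tnf, 1.30 for Il6, -0.60 for Il10 and 0.07 for Il15, each with an adjusted p of 0.999 in edgeR. For IL-4 over NT, 0 of 4 members were called, with adjusted p from 0.0520 for Il6 to 0.895 for Il10 in edgeR, where 1390 genes were called higher and 1328 lower.

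**Figure D3:**
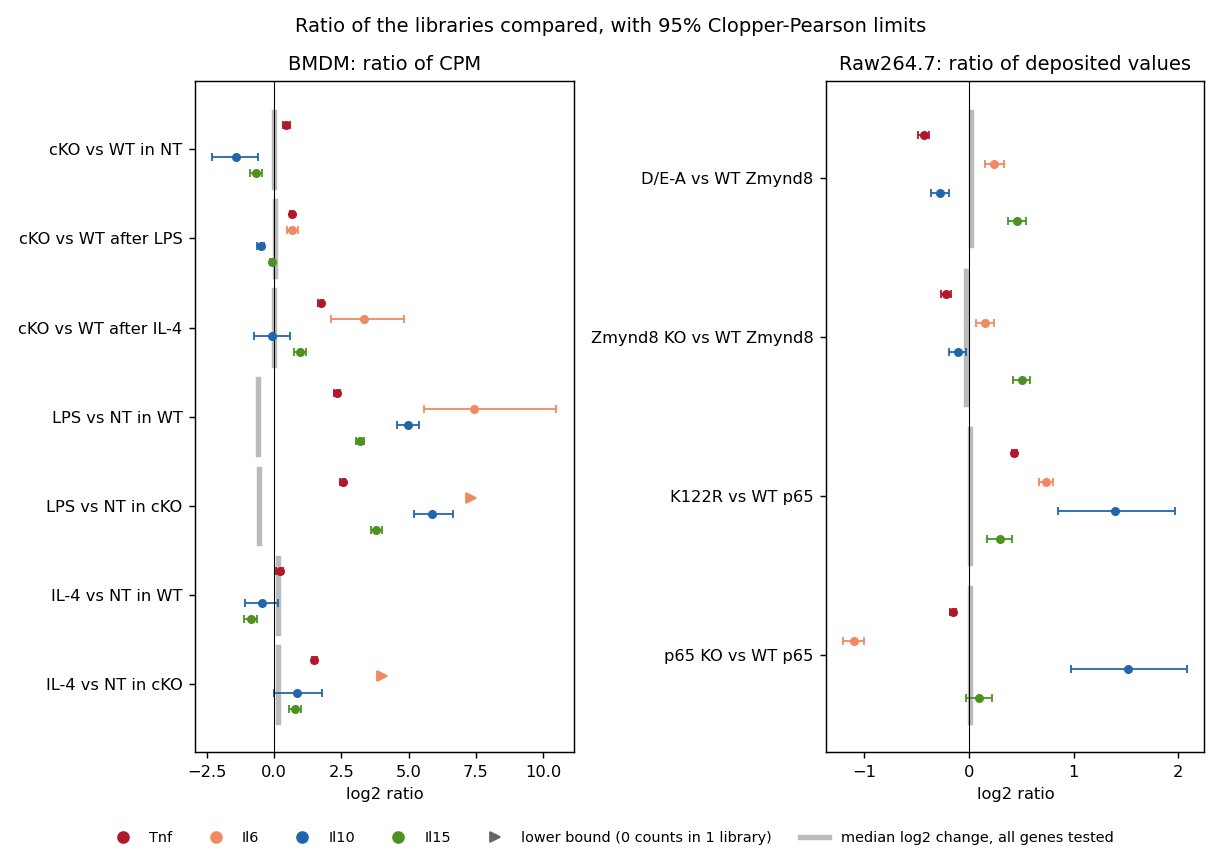
Log2 ratio of the libraries compared (horizontal axes) for each comparison (vertical axes) and gene, on CPM for BMDMs (left) and on deposited values for Raw264.7 cells (right), with 95% Clopper-Pearson limits; triangles are lower bounds where 1 library has 0 counts, and grey bars are the median log2 change of all genes tested. The LPS ratios of all 4 genes lie right of 2, and in cKO against WT the points of Tnf lie right of 0 in all 3 treatments.

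Ordered by level, the 6 BMDM libraries followed a different order for each gene, with the LPS libraries at the top for all 4. For Tnf the order from low to high was WT NT, WT IL-4, cKO NT, cKO IL-4, WT LPS and cKO LPS, and each neighbour differed beyond its counting limits. For Il6 the order was cKO NT, WT NT, WT IL-4, cKO IL-4, WT LPS and cKO LPS, in which neither WT NT and cKO NT nor WT NT and WT IL-4 differed beyond those limits. Il10 ran from cKO NT through cKO IL-4, WT IL-4 and WT NT to cKO LPS and WT LPS. Among these, WT IL-4 differed beyond the limits neither from cKO IL-4 nor from WT NT, and the ratio of cKO IL-4 to cKO NT had limits that start at 1.00. Il15 ran from WT IL-4 through cKO NT, WT NT, cKO IL-4 and cKO LPS to WT LPS. For Il15, 3 neighbouring pairs did not differ beyond their limits: WT IL-4 and cKO NT, WT NT and cKO IL-4, and cKO LPS and WT LPS.

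The count of one gene per count of another within a library does not depend on how libraries are scaled, and it was chosen as a measure after the values had been seen. Tnf per Il10 was 16.7 in WT NT, 2.71 in WT LPS and 26.8 in WT IL-4. In cKO it was 60.2 without treatment, 6.05 after LPS and 93.4 after IL-4. The cKO library was thus higher than its WT partner in each treatment, by 3.61 times without treatment (2.07 to 6.28), 2.24 times after LPS (2.05 to 2.44) and 3.48 times after IL-4 (2.21 to 5.48). Il6 per Tnf was 0.0785 in WT LPS and 0.0796 in cKO LPS, a ratio of 1.01 (0.877 to 1.17), so these genes were higher in cKO by about the same factor after LPS. Il15 per Il10 was 1.35 times as high in cKO as in WT after LPS (1.24 to 1.48), 2.07 times after IL-4 (1.29 to 3.32), and 1.67 times without treatment, where the limits of 0.943 to 2.95 include no change.

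**Figure D4:**
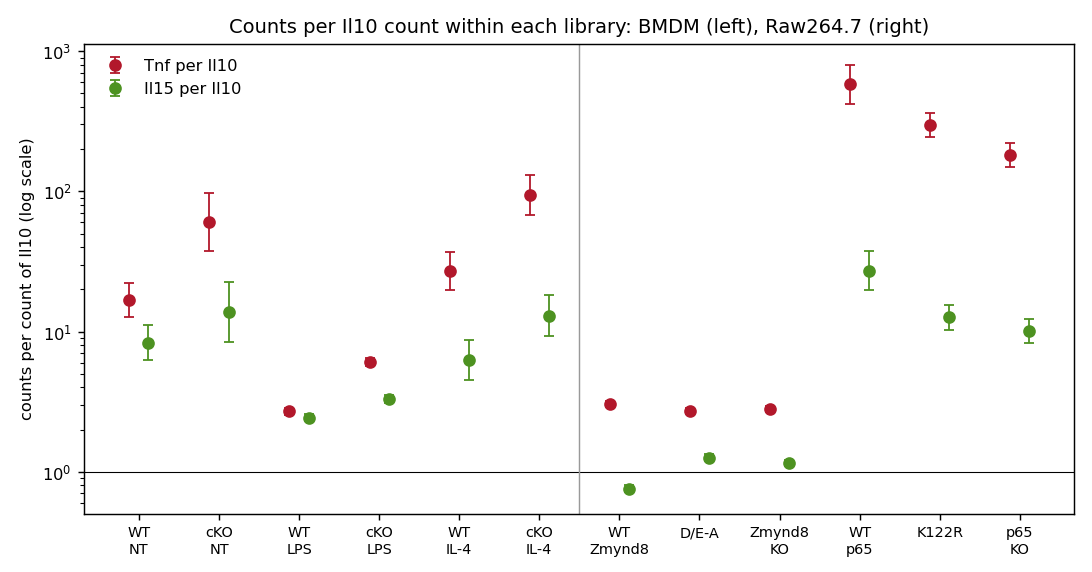
Counts of Tnf and of Il15 for each count of Il10 (vertical axis, log scale) within each of the 12 libraries (horizontal axis, BMDMs left and Raw264.7 cells right), with 95% Wald limits on the log scale. Both ratios are lowest in the LPS libraries among BMDMs, and Tnf per Il10 is 181.5 to 578 in the p65 lines against 2.72 to 3.03 in the Zmynd8 lines.

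The genes whose levels ran most like those of the members over the 6 BMDM libraries were found by Pearson's r on log2(CPM + 1) among 11803 genes with a mean of at least 1 CPM. For Tnf they were Irak3, a brake on Toll-like receptor signalling (r = 0.985), Taf9 (0.985) and A930007I19Rik (0.983). For Il6 they were Il1a, the cytokine IL-1α (0.997), the formyl peptide receptor gene Fpr3 (0.997) and Aoah, which encodes an LPS-inactivating enzyme (0.995). For Il10 they were I830077J02Rik, Angpt1 and Tax1bp1 (0.999 or more), and for Il15 Nt5c3, Myd88 and Bcar1 (0.999). Myd88 encodes the adaptor of most Toll-like receptors, and Tax1bp1 encodes a partner of A20. The members ran alike too, from r = 0.798 between Tnf and Il10 to 0.985 between Il10 and Il15. All these values rest on 6 libraries, of which the LPS pair is the highest for each member, and Taf9, Angpt1, Bcar1 and Fpr3 had few counts.

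Receptors, signalling genes and feedback genes of the same cytokines were counted by list. Among 11 genes for receptors and for the shedding of TNF and its receptors, 10 could be tested without treatment, of which 1 was called higher and 6 lower in cKO, against 21.9% and 26.1% of all genes tested. The median log2 change of the 10 was -0.38, against -0.01 for all genes. Macrophage markers moved in the same comparison, with 1 of 6 called higher (Cd68, 0.44) and 4 lower, among them Mertk (-1.27), Fcgr1 (-0.81) and Itgam (-0.72), a median of -0.51 and a summed level of 7106 CPM in WT and 7017 CPM in cKO. Their part in the counts of receptors and signalling genes was not tested. Il15ra, which presents IL-15, was lowest, at 5.65 CPM in WT and 2.17 CPM in cKO (log2 change -1.07), and Il6st, which encodes gp130, went from 205 to 106 CPM (-0.94). Il2rg, the common γ chain of the IL-15 receptor, was the 1 called higher, from 134 to 200.3 CPM (0.57). After LPS only Adam17 was called of the 10, from 222 CPM in WT to 310.4 CPM in cKO (0.48), against 17.3% of all genes called higher. After IL-4, Il2rg was called higher (0.45), and Il6st (-0.57) and Il6ra (-0.26) were called lower in cKO, against 14.0% and 10.6% of all genes tested.

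Among 15 signalling genes, 1 was called higher and 9 lower in cKO without treatment, against 21.9% and 26.1% of all genes tested, with a median log2 change of -0.40. Cflar, an inhibitor of caspase-8 below TNF receptors, went from 122.4 to 61.95 CPM (-0.97), and Jak2, a kinase of cytokine receptors, from 42.4 to 22.7 CPM (-0.87). Il15 and Il10 were lower in the same library, and no test tied them to these genes. After LPS, 5 of the 15 were called higher and 0 lower, with a median of 0.11 against 0.03 for all genes, of which 17.3% were called higher and 8.90% lower. These included Cflar (0.46), the TNF-receptor ubiquitin ligase gene Birc3 (0.40) and Traf5 (0.36). After IL-4, 4 were called higher, among them Cflar (0.61) and Birc3 (0.37), and Traf5 was called lower (-0.50), against 14.0% and 10.6% of all genes.

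The feedback list holds Socs1, Socs3, Tnfaip3 and Nfkbia, which encode inhibitors of JAK kinases or of NF-κB. Without treatment, 1 of 4 was called, Socs3, which was lower in cKO (2.98 to 1.42 CPM, -0.72), as were 26.1% of all genes tested. After LPS, Tnfaip3, which encodes A20, was called higher in cKO (0.42), as were Nfkbia, which encodes IκBα (0.30), and 17.3% of all genes tested. Socs1 and Socs3, with log2 changes of -0.18 and -0.21, were not called. After IL-4, 4 of 4 were called higher, with a median log2 change of 0.72 against 0.01 for all genes, of which 14.0% were called higher. Socs3 went from 26.1 to 85.7 CPM (1.68), Tnfaip3 from 115 to 196 CPM (0.76) and Nfkbia from 198 to 319 CPM (0.69). These genes were higher in the same library in which Tnf and Il6 were higher.

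Of 6 genes of the IL-10 response, which include Socs3, 1 was called higher and 3 lower in cKO without treatment, and 0 higher and 1 lower after LPS. Of all genes tested, 21.9% were called higher and 26.1% lower without treatment, and 17.3% and 8.90% after LPS. The gene called after LPS was Il4ra, the IL-4 receptor α chain, which went from 1275 CPM in WT to 820 CPM in cKO (-0.64), and the median of the 6 was -0.22 against 0.03 for all genes. After IL-4, Socs3 (1.68) and Bcl3 (0.28) were called higher and Nfil3 (-0.64) lower, against 14.0% and 10.6% of all genes tested. Of 12 related cytokines, 6 could be tested after LPS. Il7 (1.08 to 2.52 CPM) and Lta (1.77 to 2.90 CPM), the neighbour of Tnf that encodes lymphotoxin α, were called higher in cKO, and Il19, a cytokine of the IL-10 family (1.33 to 0.555 CPM), and Clcf1 (2.21 to 1.28 CPM) were called lower. Without treatment 1 of the 12 passed the filter and after IL-4 4 did, and 0 were called in either comparison by the exact binomial test. By edgeR with an assumed coefficient of variation these lists were not tested.

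With LPS in WT, the feedback list moved by a median log2 change of 4.004 and the IL-10 response by 2.69, against -0.58 for all genes. Socs3 went from 2.98 to 767 CPM (7.59), Socs1 from 4.88 to 295 CPM (5.65) and Il15ra from 5.65 to 173 CPM (4.71), the latter beside the rise of Il15. Of the receptors, 6 were called higher and 1 lower, and the one called lower was Il6st (205 to 51.6 CPM), where 20.7% of all genes tested were called higher and 61.3% lower. In cKO, 8 receptors were called higher and 1 lower, against 23.9% and 59.0%. With IL-4, 4 of 4 feedback genes were called higher in both genotypes, with a median of 2.26 in WT and 3.14 in cKO, where 38.8% and 42.4% of all genes tested were called higher. Tnfrsf1b, which encodes TNFR2, went from 359 to 2012 CPM in WT and from 271 to 1974 CPM in cKO. Housekeeping genes moved too. After LPS, 4 of 8 were called higher and 4 lower in WT, and scaling by their sum lowers log2 changes by 0.55, while scaling by the median of all genes raises them.

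In Raw264.7 cells the authors deposited reads over a size factor of the library, and a gene was called when this value plus 1 differed by a factor of 1.2 or more, among genes whose values averaged 1 or more, with no test. Of the values above 0, 99.995% or more in each library were whole numbers of reads to within 0.1 read, and levels are given as RPM of these. Fold changes are on the authors' scale, with 95% limits from the reads. The calls hold for 1 library against 1.

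With D/E-A in place of WT Zmynd8, Tnf and Il10 were lower and Il15 was higher, and Il6 stayed under the fold rule. Of the members, 3 of 4 were called, where 72.6% of all genes tested were called. Tnf had 7739 reads (421 RPM) with WT Zmynd8 and 5470 (305 RPM) with D/E-A, a ratio of 0.740 (0.715 to 0.767). Il10 had 2553 reads (139 RPM) and 2012 (112 RPM), a ratio of 0.826 (0.778 to 0.876). Il15 had 1929 reads (105 RPM) and 2525 (141 RPM), a ratio of 1.37 (1.29 to 1.46), which fell under the fold rule with housekeeping scaling (log2 change 0.16). Il6 had 1912 reads (104 RPM) and 2160 (120 RPM), a ratio of 1.18 (1.11 to 1.26), and under scaling by housekeeping genes its log2 change turned to -0.05. The summed neutrophil markers also differed, at 9256 RPM with WT Zmynd8 and 3783 with D/E-A, and their part in these values was not tested. No gene with fewer than 21 reads under WT Zmynd8 is listed in the D/E-A table.

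Between Zmynd8 KO and WT Zmynd8, 1 of 4 members was called, where 70.3% of all genes tested were called. It was Il15, with 2975 reads (141 RPM) in KO and a ratio of 1.42 (1.34 to 1.503). Tnf had 7210 reads (343 RPM) in KO, a ratio of 0.857 (0.830 to 0.885), and Il10 had 2575 reads (122.4 RPM), a ratio of 0.928 (0.878 to 0.980). Both were called under housekeeping scaling. Il6 had 2314 reads (110.0 RPM) in KO, a ratio of 1.11 (1.05 to 1.18) whose log2 change turned to -0.08 under housekeeping scaling. This comparison and the one with D/E-A share the WT Zmynd8 library. In RPM, Il15 in the D/E-A and KO libraries did not differ beyond the counting limits (0.952 to 1.06 for KO over D/E-A). The KO library had 6151 RPM of the neutrophil markers.

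With K122R in place of WT p65 in LPS-treated cells, all 4 members were higher on the authors' scale, though Tnf and Il15 turned to -0.03 and -0.17 on the log2 scale under housekeeping scaling. That scaling shifts log2 changes by 0.46. Of the 8 housekeeping genes, 4 were themselves called higher and 0 lower (median 0.34), against 30.8% and 32.5% of all genes tested. Of the members, 4 of 4 were called, where 63.3% of all genes tested were called, and all 4 were called higher, as were 30.8% of all genes tested. Il10 had 39 reads (2.49 RPM) with WT p65 and 99 (5.94 RPM) with K122R, a ratio of 2.64 (1.80 to 3.93). Il6 had 2694 reads (172 RPM) and 4318 (259 RPM), a ratio of 1.67 (1.59 to 1.75). Tnf had 22549 reads (1439 RPM) and 29261 (1757 RPM), a ratio of 1.35 (1.33 to 1.37). Il15 had 1060 reads (67.7 RPM) and 1249 (75.0 RPM), a ratio of 1.22 (1.13 to 1.33), and it was not called when reads were divided by library totals, where its ratio was 1.11 (1.02 to 1.204). Per count of Tnf, Il6 was 1.24 times as high with K122R (1.17 to 1.30), a value that no scaling changes.

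In p65 KO against WT p65, Il6 was lower and Il10 was higher, and Tnf and Il15 stayed under the fold rule. Of the members, 2 of 4 were called, where 51.9% of all genes tested were called. Il6 had 1213 reads (80.2 RPM) in p65 KO, a ratio of 0.466 (0.435 to 0.499). Il10 had 108 reads (7.14 RPM), a ratio of 2.87 (1.97 to 4.25). Tnf had 19603 reads (1296 RPM), a ratio of 0.900 (0.882 to 0.917), and it was called lower under housekeeping scaling. Il15 had 1093 reads (72.3 RPM), a ratio of 1.07 (0.980 to 1.16), and it turned to -0.08 on the log2 scale under housekeeping scaling. Il6 thus moved in opposite directions in K122R and p65 KO, and Il10 was higher in both. The comparisons share the WT p65 library, in which Il10 rests on 39 reads, and in RPM Il10 in K122R and p65 KO did not differ beyond the counting limits (0.906 to 1.59).

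**Figure D5:**
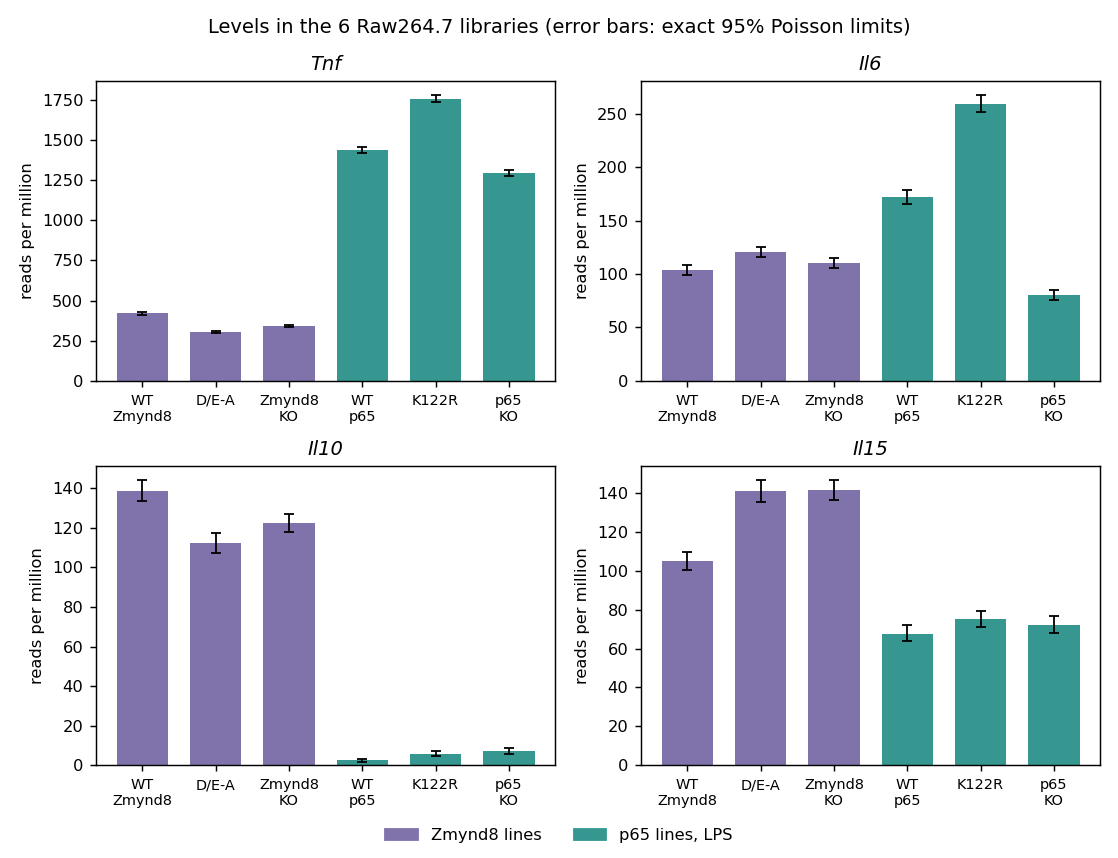
RPM (vertical axes, linear from 0) of Tnf, Il6, Il10 and Il15 in the 6 Raw264.7 libraries, 1 bar for each library, purple for the Zmynd8 lines and teal for the p65 lines, with exact 95% Poisson limits. Tnf is at 1296 or more in the p65 lines and at 421 or less in the Zmynd8 lines, and Il10 is at 112 or more in the Zmynd8 lines and at 7.14 or less in the p65 lines.

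Side by side, the sets of Raw264.7 lines differed more than the lines within a set for Tnf, Il10 and Il15. Tnf ran from 305 to 421 RPM in the Zmynd8 lines and from 1296 to 1757 in the p65 lines. Il10 ran from 112 to 139 in the Zmynd8 lines and from 2.49 to 7.14 in the p65 lines, so the lowest of the former was 15.7 times the highest of the latter. Il15 ran from 105 to 141 and from 67.7 to 75.0, and Il6 overlapped, from 104 to 120 and from 80.2 to 259. Xist, Rn18s-rs5, the neutrophil markers (3783 to 9256 RPM in the Zmynd8 lines, where all 6 were detected, and 0.1801 to 0.264 in the p65 lines, whose tables list 2 of the 6) the T cell markers (18.2 to 20.6 and 0.0600 to 0.198) and the B cell markers (102 to 147 and 5.42 to 8.17) moved with the sets. The tables of the p65 lines list 2 to 4 of the 5 T cell markers and 3 of the 4 B cell markers. Their part in these differences was not tested, and line, details of treatment and sequencing run cannot be told apart.

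By list, the receptors were called higher for 11 of 11 genes with D/E-A and for 8 of 11 in Zmynd8 KO, against 36.7% and 33.8% of all genes tested, and Il2rb was called lower in KO. Cell type markers and ribosomal RNA moved in the same comparisons. All 6 macrophage markers were called higher with D/E-A (median log2 change 1.04, summed level 2184 RPM with WT Zmynd8 and 3690 RPM with D/E-A) and in KO (0.47, 2943 RPM). The neutrophil markers were called lower for 6 of 6 with D/E-A (median -1.503) and 4 of 6 in KO (-0.64), against 35.9% and 36.5% of all genes tested. Rn18s-rs5 took 13.7% of the reads with WT Zmynd8, 6.50% with D/E-A and 11.1% in KO. Their part in the counts of these lists was not tested. With D/E-A, Adam17 (log2 change 1.05), Tnfrsf1a, which encodes TNFR1 (1.00), and Il15ra (0.78) moved most, the latter beside Il15. Among feedback genes, Socs3 (1.498), Tnfaip3 (1.403) and Socs1 (1.04) were called higher with D/E-A and Nfkbia was called lower (-0.79). The same genes were called in the same directions in Zmynd8 KO, with 1.04, 0.95, 0.96 and -0.42, against the shared WT Zmynd8 library. Of 6 IL-10 response genes, 6 were called higher in both, with medians of 1.09 and 0.79, while Il10 itself had log2 changes of -0.28 and -0.11. Ltb, the lymphotoxin β gene near Tnf, was called lower in both (-1.65 and -0.74), and Lta was called lower with D/E-A (-1.49).

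With K122R, 6 of 7 related cytokines were called higher and 1 lower, with a median log2 change of 0.89 against 0.01 for all genes, of which 30.8% were called higher and 32.5% lower. In p65 KO, against the same WT p65 library, 6 of 9 were called higher and 1 lower (median 0.38), where the shares were 26.3% and 25.7%. These counts were not redone under housekeeping scaling. With K122R, Lta went from 84 to 513 reads (2.65) and Lif, a cytokine of the IL-6 family, from 1166 to 3628 reads (1.69). Tnfaip3 (0.52), Socs3 (0.50) and Nfkbia (0.37) were called higher with K122R, but under the housekeeping shift of 0.46 none of them passes the fold rule and Nfkbia turns negative, and Il6ra was called lower (-1.05). In p65 KO, Tnfaip3 was called lower (-0.73) and Socs1 higher (0.33), Lif was called higher (1.15), and 0 of the 15 signalling genes were called by the fold rule, against 26.3% of all genes called higher and 25.7% called lower. By the count test on recovered reads the lists were not tested.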

How the data were processed

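The members and gene lists were chosen with earlier results of these data known. For BMDMs, the authors aligned polyadenylated RNA-seq reads with TopHat to mm10 and deposited estimated counts per gene, undivided, together with TPM, which they scaled by transcript length and library. The submitters' processing notes also list CASAVA 1.4 and Bowtie 0.12.2. For Raw264.7 cells, the authors deposited a signal per gene, found to be reads over a size factor set separately for each table. The tables also hold the authors' log2 fold changes and p-values, which were not used, and 2 unlabelled per-sample columns were left out. Entries that name no gene, 431 in the NT and LPS tables and 2 in the IL-4 table, were dropped.

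Estimated counts were rounded, and CPM were taken over library totals. The design had foreseen the fold rule alone for tables without counts, and it was applied to the Raw264.7 values. Python 3.11.15 with scipy 1.17.1 gave exact binomial tests and 95% limits, and edgeR 4.0.16 in R 4.3.3 gave an exact test in which the biological coefficient of variation was set to 0.2. A quasi-likelihood fit of genotype and treatment over the 6 BMDM libraries was added after the data had been seen. The binomial test and this fit were tested on simulated data. Named genes of each list are the 3 called with the largest change in either direction; Socs1 and Socs3 after LPS were added after their values were seen, to complete a list. One gene that the rule names is not reported here. Alternatives changed the scaling, filter, pseudocount, unit or test.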

Additional observations from a re-analysis of the deposited data

Results flagged for a closer look

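The difference between cKO and WT was itself compared between treatments, as the log2 ratio of cKO to WT in one treatment minus that in another, with 95% limits from counting error alone and 1 library per condition. These values come from the same libraries as the ratios above and share them among each other. For Tnf the ratio was 0.21 higher after LPS than without treatment (0.07 to 0.35), 1.28 higher after IL-4 than without treatment (1.12 to 1.44) and 1.07 higher after IL-4 than after LPS (0.96 to 1.18). For Il6 it was 2.66 higher after IL-4 than after LPS (1.43 to 3.89), on 6 and 56 counts after IL-4. For Il10 it was 0.90 higher after LPS than without treatment (0.10 to 1.70) and 1.33 higher after IL-4 than without treatment (0.31 to 2.35), on 17 counts in cKO NT. For Il15 it was 0.60 higher after LPS than without treatment (0.36 to 0.84), 1.64 higher after IL-4 than without treatment (1.33 to 1.96) and 1.04 higher after IL-4 than after LPS (0.81 to 1.27). The difference for Il10 between IL-4 and LPS, 0.43, had limits of -0.23 to 1.09. Neutrophil markers, at 286 to 402 CPM after IL-4 against 2.14 to 3.85 CPM otherwise, moved with the IL-4 libraries, and their part was not tested.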

How the results depend on the processing

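Each condition has 1 library, so no replicate could be left out. No paired analysis was possible because no replicate number joins more than 1 library of a condition, so treatment served as the block in the fit over the 6 BMDM libraries, which called 4 of 4 members for LPS over NT and 0 for cKO over WT and for IL-4 over NT. Of 42 member results that could be tested, 31 were called, and 10 of these kept direction and call in each of the other alternatives run (9 for a BMDM comparison, 7 for Raw264.7 cells). These 10 include Il6 in both comparisons of LPS with NT, where it passed the count filter only through the LPS library. When edgeR's exact test was given a biological coefficient of variation of 0.2, 0 members were called in cKO against WT in NT and after LPS, IL-4 against NT in WT, D/E-A, Zmynd8 KO, K122R and p65 KO. Under housekeeping scaling the members called were 2 for IL-4 against NT in WT, Tnf being added, 3 for Zmynd8 KO and 2 for K122R. For IL-4 against NT in WT, the fold rule alone and deposited TPM each called 2, adding Il10, and for Zmynd8 KO the recovered reads with the exact binomial test called 2. Direction turned for Il15 in cKO against WT after LPS on TPM (log2 change 0.11). It turned under housekeeping scaling for Il6 with D/E-A (-0.0496) and Zmynd8 KO (-0.0794), for Tnf (-0.0317) and Il15 (-0.17) with K122R, and for Il15 in p65 KO (-0.0767). The cause was not tested.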
